A study of Mus musculus with 9 samples.

Results

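The circular RNAs (circRNAs) described here come from host genes of the ubiquitin pathway, and they were measured after immunoprecipitation of the neuronal RNA-binding protein HuD from the mouse striatum. Their host gene symbols begin with 1 of 18 fixed name stems such as Ube, Uba, Ubr, Rnf, Trim, Fbx, Klhl or Psm. The rule found 25 circRNAs of 20 host genes among the 737 circRNAs that the authors' tables name for a raised HuD RIP signal, and the array holds 14330 non-control probes in all. All 25 passed the filter on dim probes. They were chosen by measured values, since a circRNA is listed only where its signal was more than 1.5-fold higher in HuD RIP than in a control at an unadjusted p under 0.05. Their differences between HuD RIP and the controls are therefore given as a description, with no test.

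RNA immunoprecipitation (RIP) recovers the RNA that comes down with a protein. HuD RIP used an anti-myc antibody on adult striatum of HuD transgenic mice (HuD-OE), which carry myc-tagged HuD under the Camk2a promoter on a C57BL/6J background, so the tagged protein is made where that neuronal promoter is active. WT RIP used the same antibody on wild type striatum, which has no tagged protein, and IgG RIP is titled IgG, for which the methods describe non-immune IgG on HuD-OE striatum while the antibody label of those samples again reads anti-myc. Each group has 3 samples, and each was hybridized to 1 one-colour array after RNase R removed linear RNA. The study pooled 3 mice for the RIP assays, and its wording does not settle whether the 3 samples of a group came from separate pools, so the spread between samples may be technical. No array of the RNA before precipitation was analysed here, so more of a circle in the tissue, more cells that make it and more of it bound by HuD cannot be told apart. The striatal label was not checked against cell type markers here.

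Ubiquitin is a small protein that is attached to other proteins by a relay of enzymes. An activating enzyme (E1) charges it, a conjugating enzyme (E2) carries it, and a ligase (E3) picks the substrate and completes the transfer. Proteins marked with ubiquitin chains can be unfolded and degraded by the proteasome, and in neurons this turnover is known for its part in shaping synapses. HuD binds AU-rich and U-rich stretches of mRNAs, and circRNAs arise when a downstream splice site is joined back to an upstream one, which leaves a junction that the linear transcript lacks. The 25 circRNAs divide by host gene into 1 of an E1, 7 of 4 E2 genes, 1 of a HECT-type E3, 11 of 9 genes of the RING and N-end-rule E3 families, 3 of cullin-RING adaptors and 2 of the proteasome. No listed circRNA came from a gene with the stems for cullins, deubiquitinases of the Usp family or SUMO.

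The authors give a sequence of 60 bases for each circRNA, without marking where in it the back-splice lies. The sequences below are chosen from the circRNAs whose values are described one by one, which are those of the 2 host genes with several circles, the largest and smallest differences of measured means from the higher control, and the circles detected on every array. Capitals mark the AU-rich pentamer ATTTA and runs of 4 or more T, searched on the strand as printed.
Ube2e2 mmu_circRNA_27145: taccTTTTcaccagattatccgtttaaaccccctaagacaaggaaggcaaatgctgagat
Ube2e2 mmu_circRNA_27143: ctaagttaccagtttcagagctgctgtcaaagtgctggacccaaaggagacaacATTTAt
Ube2e2 mmu_circRNA_27137: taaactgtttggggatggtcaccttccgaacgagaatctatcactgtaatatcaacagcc
Trim37 mmu_circRNA_24012: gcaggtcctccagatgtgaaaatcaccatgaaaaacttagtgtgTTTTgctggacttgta
Trim37 mmu_circRNA_24020: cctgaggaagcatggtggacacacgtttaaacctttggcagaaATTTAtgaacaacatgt
Trim37 mmu_circRNA_014957: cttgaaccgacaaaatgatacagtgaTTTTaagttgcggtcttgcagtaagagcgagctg
Rnf11 mmu_circRNA_37424: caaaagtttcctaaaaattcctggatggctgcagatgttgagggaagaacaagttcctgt
Trim8 mmu_circRNA_32703: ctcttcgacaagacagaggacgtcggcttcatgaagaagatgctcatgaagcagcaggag
Rnf169 mmu_circRNA_41987: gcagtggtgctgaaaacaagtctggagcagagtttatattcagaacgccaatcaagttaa
Rnf214 mmu_circRNA_19513: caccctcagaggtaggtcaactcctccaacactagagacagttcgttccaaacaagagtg
Fbxo21 mmu_circRNA_39241: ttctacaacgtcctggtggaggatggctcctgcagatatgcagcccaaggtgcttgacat

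ATTTA occurred in 3 of the 25 sequences (12%), those of Ube2e2 mmu_circRNA_27143, Trim37 mmu_circRNA_24020 and the Rnf2 circle, and in 36 of the other 712 listed circRNAs (5.06%). A run of at least 4 T occurred in 8 of 25 (32%) against 113 of 712 (15.9%), and a run of 5 occurred in 0 of 25 against 27 of 712 (3.79%). The sequences of Rnf11, Trim8, Rnf169, Rnf214 and Fbxo21 hold neither element. The median T content was 25% (16.7 to 31.7%) against 23.3% for the other listed circRNAs, and the median GC content was 43.3% against 45.0%. These letters describe the junction windows alone and not the rest of each circle.

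The values below are log2 processed signals from which each array's 75th percentile was subtracted (scaled log2 signal), so 0 is the brightness that 25% of that array's probes exceed. A scaled value compares the arrays for 1 circRNA, and levels of different circRNAs are not set against each other. A circRNA counts as detected where the scanner software marked it as well above background. The arrays differed in brightness before scaling, with a 75th percentile of the log2 signal between 3.49 and 5.46 for HuD RIP, between 2.35 and 3.51 for WT RIP and between 2.04 and 2.42 for IgG RIP, and the part of this in the results was not tested. On WT RIP replicates 2 and 3, 6041 and 4995 probes share the lowest repeated signal, and 10 and 9 of the 25 circRNAs sit at it, so those values have no order among themselves.

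Most of the 25 circRNAs were detected on the HuD RIP arrays and few on the IgG RIP arrays. On HuD RIP replicates 1, 2 and 3, 25, 24 and 25 of them were detected. On the WT RIP arrays 18, 4 and 6 were detected, with WT RIP replicate 1 well apart from the others. The arrays also differed in the share of all non-control probes detected. For replicates 1, 2 and 3 it was 73.9, 43.7 and 55.7% in HuD RIP and 44.6, 25.4 and 31.7% in WT RIP. In IgG RIP it was 26.3, 21.8 and 21.7%. On each of the 3 IgG RIP arrays 3 of the 25 were detected, the circles of Rnf169, Fbxo21 and Klhl2. No IgG RIP array detected the other 22, and no control array at all detected 7, those of Ube2j1, Ube3a, Rnf115, Rnf2, Trim8, Psme3 and Trim37 mmu_circRNA_014957. Among the other listed circRNAs, 66.0% were undetected on every IgG RIP array and 20.2% on every control array, against 88% and 28% of the 25.

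**Figure D1:**
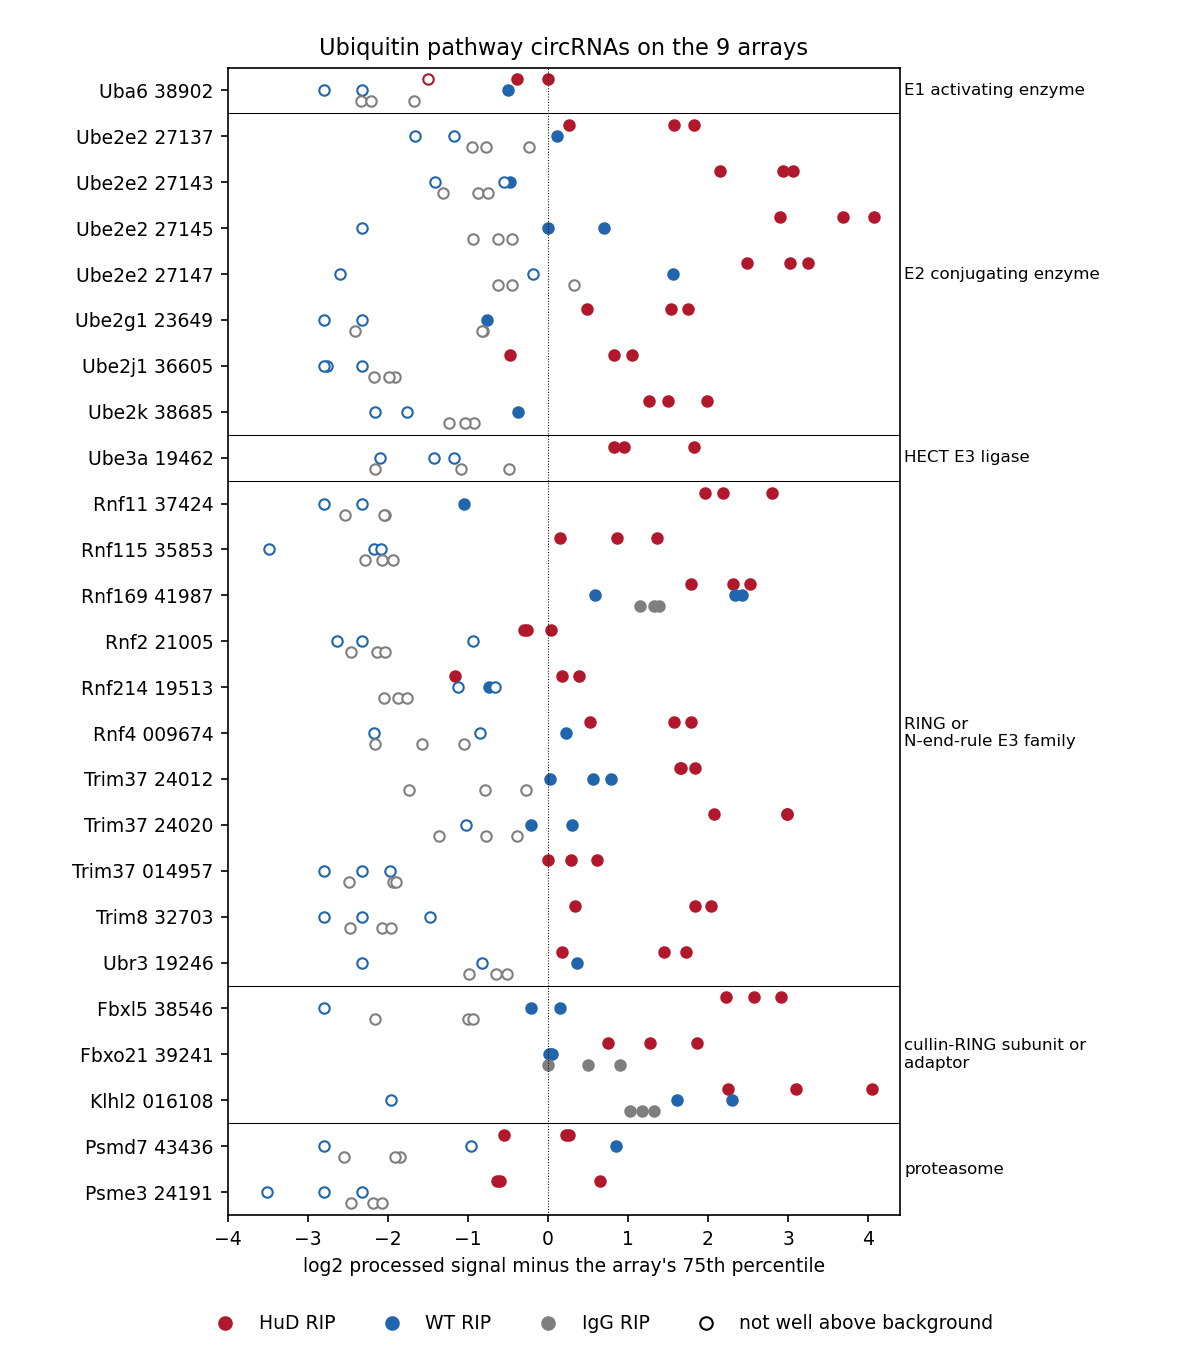
Scaled log2 signal (log2 processed signal minus the array's 75th percentile) of the 25 circRNAs on the 9 arrays, 1 point for each array, with open points not well above background and rows grouped by the role of the host gene. In 18 rows all 3 HuD RIP points lie right of all 6 control points (background 12.5% of tested probes). The choice of circRNAs bears on that count.

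By rank within an array, the 25 circRNAs lay near the top of the HuD RIP arrays and near the middle of the control arrays. Their median percentile among all non-control probes was 92.7, 81.5 and 92.6 on HuD RIP replicates 1, 2 and 3. For WT RIP it was 69.3, 44.5 and 58.1, and for IgG RIP 55.2, 49.4 and 59.8. The other 712 listed circRNAs, chosen by the same contrasts, ranked alike. With each circRNA's median percentile taken within a group, the 25 had medians of 91.0 in HuD RIP, 62.7 in WT RIP and 59.0 in IgG RIP. The other 712 had medians of 90.3, 62.9 and 61. HuD RIP replicate 2 was the lowest of the 3 HuD RIP arrays for 24 of the 25 circRNAs, all but that of Rnf11.

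**Figure D2:**
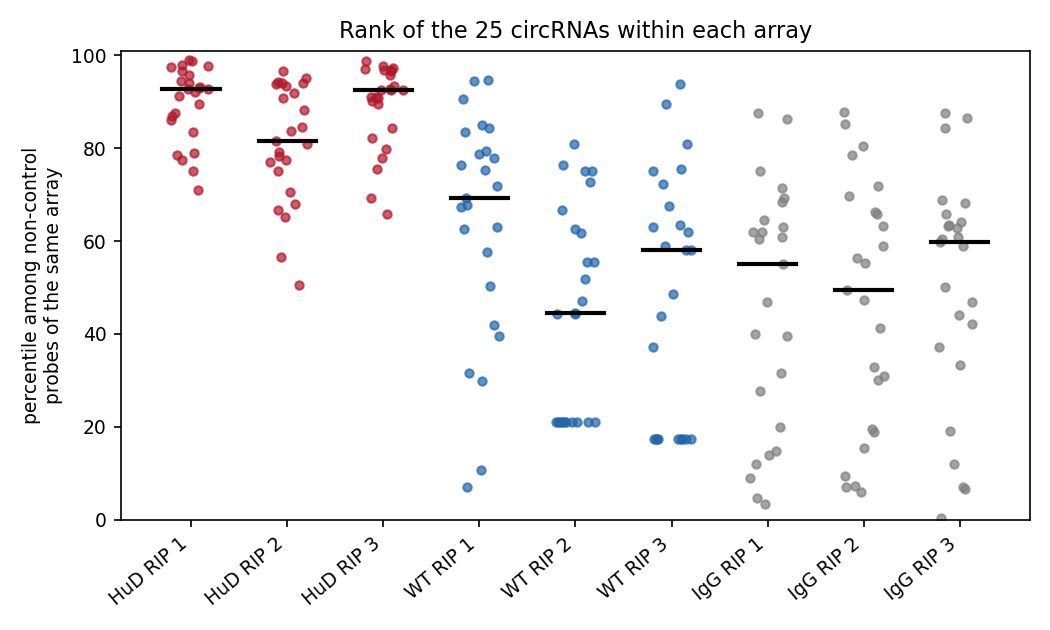
Percentile of each of the 25 circRNAs among the non-control probes of the same array, with arrays on the horizontal axis and a bar at the median. The medians are 81.5 to 92.7 on HuD RIP arrays and 44.5 to 69.3 on control arrays. The flat rows of points on WT RIP replicates 2 and 3 are circRNAs that share the lowest repeated signal. The other 712 listed circRNAs, not drawn, had similar median percentiles.

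For all 25 circRNAs the scaled signal of HuD RIP exceeded that of WT RIP, with a median difference of 2.68 on the log2 scale and a range from 0.43 to 4.38, while the median over all 6871 tested probes was -0.36. Against IgG RIP the median was 2.49, with a range from 0.82 to 4.53 and a median of -0.29 over all tested probes. With circRNAs undetected on every array of a control set to their detection bound, the medians were 2.05 against WT RIP and 1.27 against IgG RIP. By the limma fit across all tested probes at an adjusted p under 0.05, 19 of the 25 were higher than in WT RIP (background 12.4% of tested probes), 21 were higher than in IgG RIP (background 14.2%) and 18 were higher than in both (background 9.88%). Every HuD RIP array was above every WT RIP array for 19 (background 14.9%), above every IgG RIP array for 24 (background 20.9%) and above all 6 control arrays for 18 (background 12.5%). Nothing is read from these counts, because the same contrasts chose the circRNAs. The authors' normalized log2 values gave medians of 1.26 and 1.19, and background correction by normexp gave 0.64 and 0.66 with 10 and 9 calls. With the brightness of each array as a covariate, 7 and 2 of the 25 were called. Within row 1 of the slide, which held HuD RIP replicate 1 and the 3 WT RIP arrays, the median difference was 2.93. Within row 2, which held the other HuD RIP arrays and IgG RIP, it was 2.42, and with the row as a block 19, 18 and 16 were called against WT RIP, IgG RIP and both. Within slide 1, which lacks IgG RIP replicate 3, the median against IgG RIP was 2.67, and with the slide as a block 17, 16 and 15 were called.

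The other 712 listed circRNAs, chosen by the same contrasts, had median differences of 2.15 from WT RIP and 2.17 from IgG RIP. With undetected circRNAs set to their detection bound, these medians were 1.85 and 1.18, compared with 2.05 and 1.27 for the 25. Of the 712, 69.4% were called against both controls, compared with 72% of the 25. At the threshold of the list, on the authors' normalized values, the circles just inside it were those of Rnf2 at 1.52-fold, Rnf214 at 1.53-fold and Uba6 at 1.57-fold over IgG RIP, and of Psme3 at 1.56-fold over WT RIP. Circles just outside it carry no gene name in the tables and are not analysed here. The authors' tables list 15 of the 25 against both controls. The circles of Uba6, Rnf169, Rnf2, Rnf214, Ubr3, Klhl2, Psmd7 and Ube2e2 mmu_circRNA_27137 are listed against IgG RIP alone, and those of Fbxo21 and Psme3 against WT RIP alone.

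**Figure D3:**
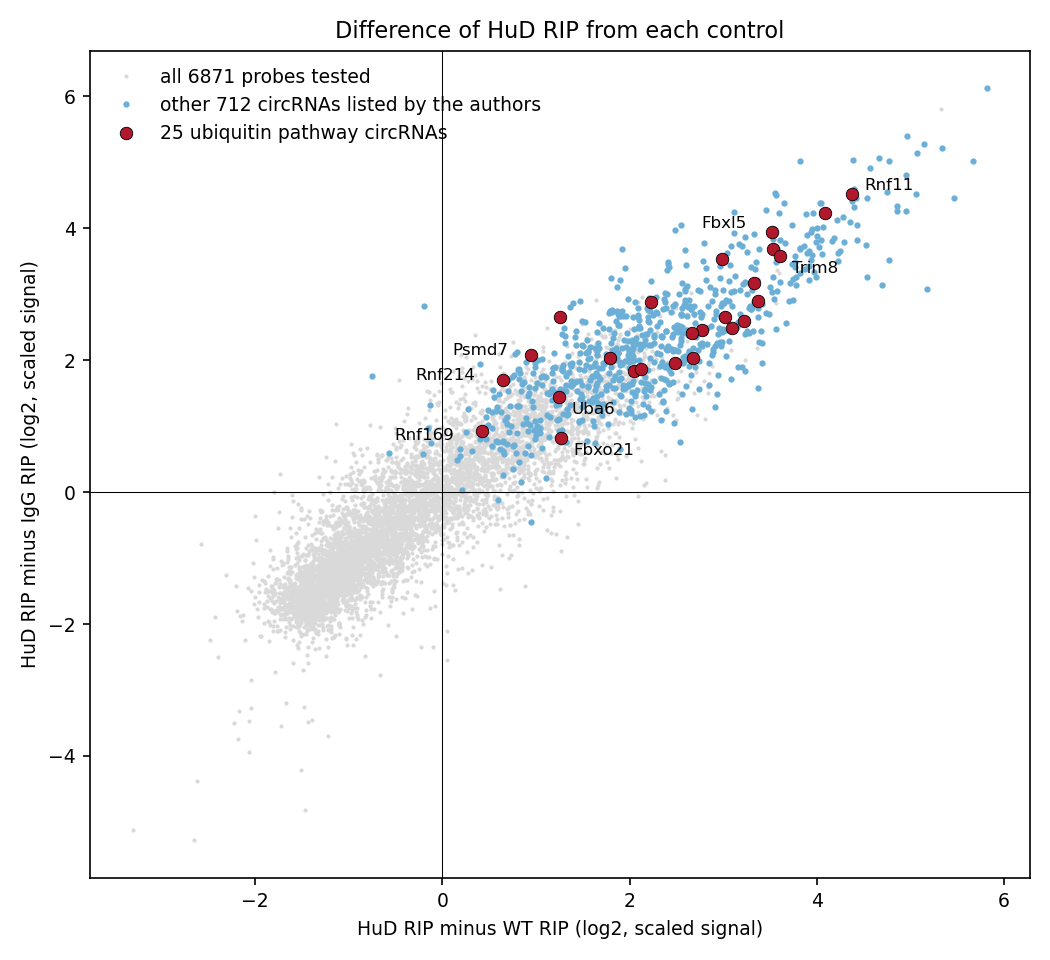
Difference in scaled log2 signal between HuD RIP and WT RIP (horizontal) and between HuD RIP and IgG RIP (vertical) for all 6871 tested probes, the other 712 circRNAs listed by the authors and the 25 ubiquitin pathway circRNAs. Both axes share the HuD RIP arrays, and the 25 lie between 0.43 and 4.38 on the horizontal axis and between 0.82 and 4.53 on the vertical one.

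The only E1 among the host genes was Uba6, which activates both ubiquitin and the ubiquitin-like protein FAT10. Its circle mmu_circRNA_38902 (chr5:86137816-86144478, minus strand) was undetected on HuD RIP replicate 2 and on every IgG RIP array, and 1 of 3 WT RIP arrays detected it. It was 1.24 ± 0.59 (SE, n = 3 against 3) higher than in WT RIP on the log2 scale, and HuD RIP replicate 2 fell within the range of the WT RIP arrays. No fold is given against IgG RIP, the control it is listed against, because the bound set by the detection limit did not exceed 1.

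Of the 7 circles of E2 genes, 7 were above all 6 control arrays on every HuD RIP array (background 12.5% of tested probes), a count that the choice of circRNAs bears on. Their differences from WT RIP ran from 2.12 to 4.09, with a median of 3.22. Ube2e2, which encodes an E2 of the UBE2E family, gave 4 circles, and among all listed genes only Tulp4, with 5, gave more. Camta1, Anks1b, Homer1 and Mboat2 also gave 4.

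The 4 Ube2e2 circles come from the minus strand of chromosome 14 and lie inside the gene as RefSeq places it on GRCm38.p6. In the order of transcription they are mmu_circRNA_27147 (exonic, chr14:18871493-18888449), mmu_circRNA_27145 (intronic, chr14:18630298-18639087), mmu_circRNA_27143 (intronic, chr14:18627861-18630431) and mmu_circRNA_27137 (sense overlapping, chr14:18574175-18586998), with the classes as the array's provider names them. The first is separated from the next by 232406 bases. The middle pair overlap by 133 bases, and no other pair overlaps. The 60-base sequences of the 3 downstream circles share no run longer than 6 bases.

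Ube2e2 mmu_circRNA_27145 had scaled signals of 3.68, 2.90 and 4.08 on HuD RIP replicates 1, 2 and 3. The WT RIP arrays gave 0.70, -2.33 and 0.00, and the IgG RIP arrays -0.94, -0.63 and -0.45. Every HuD RIP array lay above every control array, and WT RIP replicate 2 was the lowest array and sat at its floor. The circle was detected on 2 of 3 WT RIP arrays and no IgG RIP array. HuD RIP was 4.09 ± 0.65 (SE) higher than WT RIP on the log2 scale and at least 12.1-fold higher than IgG RIP, where at least marks a bound set by the detection limit.

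Its neighbour mmu_circRNA_27143 gave 3.06, 2.15 and 2.94 in HuD RIP, -0.47, -1.42 and -0.55 in WT RIP, and -0.87, -1.31 and -0.74 in IgG RIP. Again no control array reached a HuD RIP array, and both control groups covered a similar narrow range. The difference from WT RIP, where 1 of 3 arrays detected it, was 3.53 ± 0.42 (SE), and HuD RIP was at least 6.79-fold higher than IgG RIP.

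The most upstream circle, mmu_circRNA_27147, gave 3.03, 2.49 and 3.24 in HuD RIP. In WT RIP it gave 1.56, -0.18 and -2.60, and in IgG RIP -0.45, 0.33 and -0.63. The WT RIP arrays spread over more than 4 log2 units with replicate 1 on top, although none reached HuD RIP. The difference from WT RIP, where 1 of 3 arrays detected it, was 3.33 ± 0.79 (SE), and HuD RIP was at least 7.37-fold higher than IgG RIP.

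The most downstream circle, mmu_circRNA_27137, gave 1.82, 0.26 and 1.57 in HuD RIP, 0.11, -1.66 and -1.17 in WT RIP, and -0.77, -0.24 and -0.95 in IgG RIP. HuD RIP replicate 2 was only slightly above WT RIP replicate 1, so HuD RIP was separate from the controls by a narrow gap. The difference from WT RIP, detected there on 1 of 3 arrays, was 2.12 ± 0.54 (SE), and HuD RIP was at least 2.41-fold higher than IgG RIP. Among the 4, this circle had the smallest difference of measured means from WT RIP and was the one listed against IgG RIP alone. No order is given against IgG RIP, where no array detected any of the 4.

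**Figure D4:**
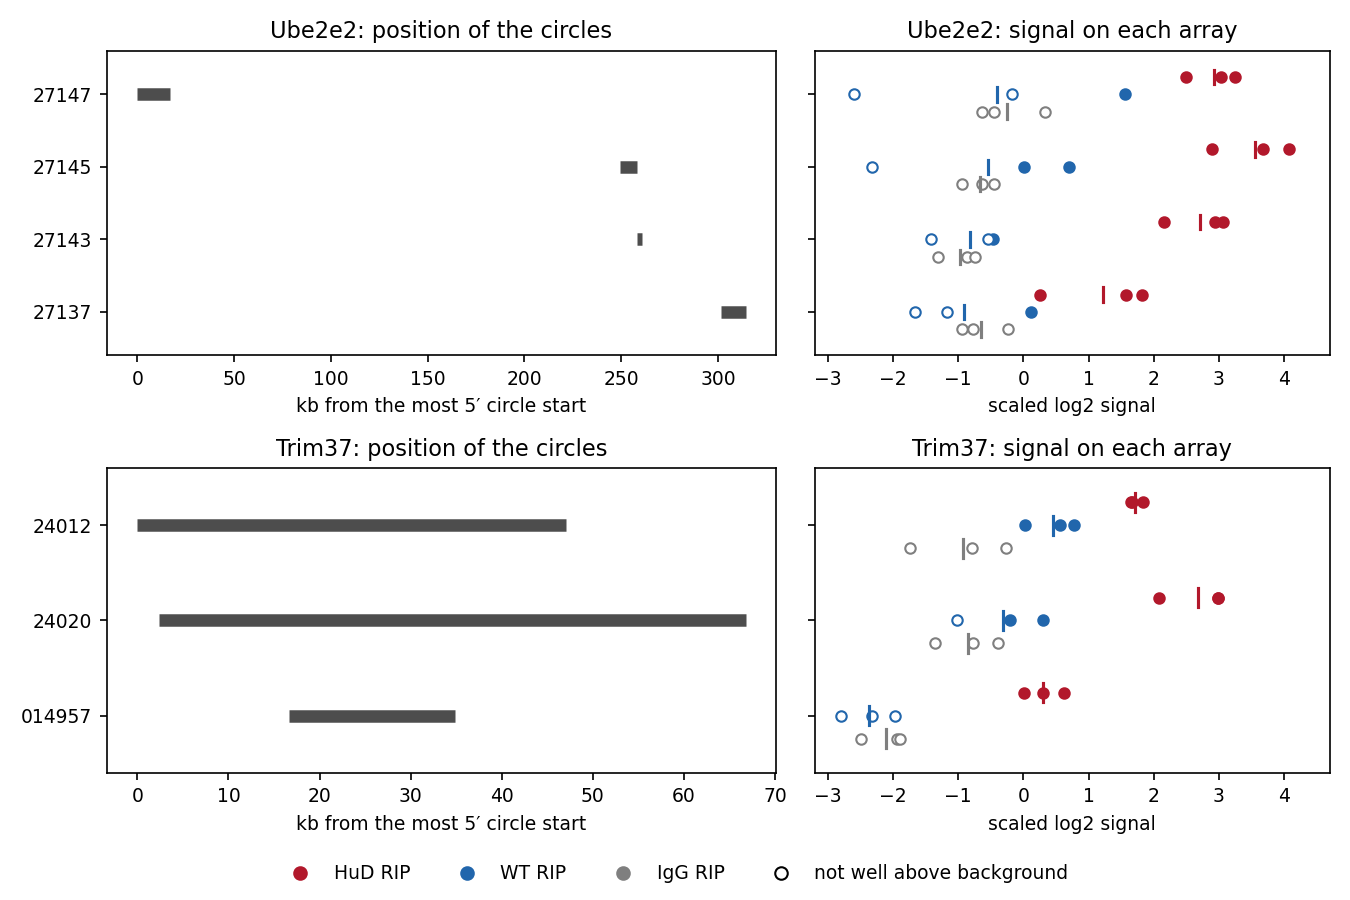
Left, extent of the listed circles of Ube2e2 and Trim37 in kb from the most 5′ circle start, in the direction of transcription. Right, scaled log2 signal of each circle on the 9 arrays, with open points not well above background and ticks at group means. The HuD RIP points lie right of all control points in all 7 rows (background 12.5% of tested probes), a count that the choice of circRNAs bears on. Trim37 mmu_circRNA_24012 is detected on all 3 WT RIP arrays.

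The remaining E2 circles were exonic and each the only one of its gene. Of the WT RIP arrays, only replicate 1 detected those of Ube2g1 and Ube2k, and for Ube2g1 the other 2 sat at the floor, so these differences are set against signals mostly not above background. Ube2g1 (an E2 that extends ubiquitin chains) differed from WT RIP by 3.22 ± 0.61 (SE) and was at least 2.47-fold above its IgG RIP level in HuD RIP. Ube2k (a chain-building E2 that binds huntingtin) differed from WT RIP by 3.02 ± 0.47 (SE) and was at least 3.10-fold above its IgG RIP level. Ube2j1 (an E2 anchored in the endoplasmic reticulum that serves the disposal of misfolded proteins) was detected on no control array, and HuD RIP was at least 2.35-fold higher than WT RIP and at least 1.43-fold higher than IgG RIP. Its position was chr4:33036708-33043986 on the plus strand.

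The HECT-type E3 was Ube3a, the ligase whose loss from neurons underlies Angelman syndrome. Its sense overlapping circle mmu_circRNA_19462 (chr7:59240966-59247219, plus strand) gave 0.95, 0.83 and 1.83 in HuD RIP, -2.11, -1.42 and -1.17 in WT RIP and -2.17, -1.08 and -0.49 in IgG RIP. It was detected on every HuD RIP array and on no control array, and every HuD RIP array lay above every control array. HuD RIP was at least 3.91-fold higher than WT RIP and at least 2.38-fold higher than IgG RIP.

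The RING and N-end-rule E3 families gave 11 circles of 9 genes, and here the differences were widest apart, from 0.43 (Rnf169) to 4.38 (Rnf11) against WT RIP. Of the 11, 8 lay above all 6 control arrays (background 12.5% of tested probes), a count that the choice of circRNAs bears on. Rnf11, a small RING protein of the A20 ubiquitin-editing complex, had the largest difference of measured means from the higher control among the 25, a rank that rests on control signals mostly at or near the floor. Its sense overlapping circle mmu_circRNA_37424 (chr4:109454101-109457067, minus strand) gave 1.97, 2.19 and 2.80 in HuD RIP, -1.06, -2.33 and -2.80 in WT RIP and -2.53, -2.04 and -2.05 in IgG RIP. Only WT RIP replicate 1 detected it among the controls, and that array was still about 3 log2 units under the lowest HuD RIP array. HuD RIP was 4.38 ± 0.48 (SE) above WT RIP and at least 5.16-fold above IgG RIP, and bounds have no order.

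Trim8, a RING ligase of NF-kB and cytokine signalling, had the shortest exonic circle of the 25, mmu_circRNA_32703, which spans 619 bases (chr19:46512722-46513341, plus strand). It gave 2.04, 0.34 and 1.84 in HuD RIP, -1.48, -2.33 and -2.80 in WT RIP and -2.47, -2.08 and -1.96 in IgG RIP. HuD RIP replicate 2 was lower than the other HuD RIP arrays but above every control array, and no control array detected the circle. HuD RIP was at least 4.50-fold higher than WT RIP and at least 2.74-fold higher than IgG RIP.

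Trim37, a ligase of the centrosome and the peroxisome whose loss causes mulibrey nanism, gave 3 exonic circles from the plus strand of chromosome 11. They are mmu_circRNA_24012 (chr11:87143126-87190159), mmu_circRNA_24020 (chr11:87145463-87209887) and mmu_circRNA_014957 (chr11:87159820-87178028). The last, of 18208 bases, is nested in both others, and those overlap by 44696 bases. The 64424 bases of mmu_circRNA_24020 were the longest span among the 25.

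Trim37 mmu_circRNA_24020 gave 2.99, 2.07 and 2.99 in HuD RIP, 0.30, -1.03 and -0.21 in WT RIP and -1.36, -0.39 and -0.78 in IgG RIP. All HuD RIP arrays were well above all controls, of which 2 of 3 WT RIP arrays and no IgG RIP array detected it. It differed from WT RIP by 2.99 ± 0.47 (SE) and was at least 6.64-fold above its IgG RIP level in HuD RIP.

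The nested mmu_circRNA_014957 gave 0.29, 0.00 and 0.62 in HuD RIP, -1.97, -2.33 and -2.80 in WT RIP and -2.49, -1.93 and -1.90 in IgG RIP. No control array detected it, and HuD RIP was at least 2.10-fold higher than WT RIP and at least 1.28-fold higher than IgG RIP.

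For mmu_circRNA_24012 the values were 1.66, 1.65 and 1.84 in HuD RIP, 0.78, 0.02 and 0.57 in WT RIP and -0.27, -1.74 and -0.79 in IgG RIP. The 3 groups formed 3 separate steps, and all WT RIP arrays but no IgG RIP array detected the circle. HuD RIP was 1.26 ± 0.44 (SE) above WT RIP and at least 3.39-fold above IgG RIP. Against WT RIP this difference was smaller than that of mmu_circRNA_24020. No order is given with mmu_circRNA_014957, which no WT RIP array detected.

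Rnf169, a reader of ubiquitinated histones at DNA breaks, was detected on all 9 arrays. Its circle mmu_circRNA_41987 (chr7:99942958-99955540, minus strand) gave 2.31, 1.79 and 2.53 in HuD RIP, 2.33, 0.59 and 2.42 in WT RIP and 1.15, 1.38 and 1.32 in IgG RIP. HuD RIP overlapped WT RIP, in which replicates 1 and 3 were as high as HuD RIP and replicate 2 was below every other array, while it lay above every IgG RIP array. The differences were 0.43 ± 0.49 (SE) from WT RIP and 0.92 ± 0.49 (SE) from IgG RIP.

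The intronic circle of Rnf214, mmu_circRNA_19513, spans 370 bases and was the shortest of the 25 (chr9:45869176-45869546, minus strand). It gave 0.18, -1.16 and 0.38 in HuD RIP, -0.74, -0.66 and -1.13 in WT RIP and -1.87, -2.04 and -1.77 in IgG RIP. HuD RIP replicate 2 lay under all WT RIP arrays, and all HuD RIP arrays lay above IgG RIP. HuD RIP differed from WT RIP, where 1 of 3 arrays detected the circle, by 0.65 ± 0.44 (SE). No fold is given against IgG RIP, where the signal was below the detection limit and the bound did not exceed 1.

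The other ligase circles were those of Rnf115, Rnf4, Rnf2 and Ubr3, and only 1 of 3 WT RIP arrays detected those of Rnf4 and Ubr3. Rnf4, the ligase that recognises SUMO-modified proteins, differed from WT RIP by 2.23 ± 0.59 (SE) and was at least 2.54-fold above its IgG RIP level in HuD RIP. Rnf115 was at least 2.94-fold higher than WT RIP and Rnf2, the catalytic subunit of Polycomb complex PRC1, at least 1.51-fold higher, with no control array detecting either. For Rnf2 no fold is given against IgG RIP, where the bound did not exceed 1. Ubr3, of the N-end-rule family, differed from WT RIP by 2.05 ± 0.62 (SE), with WT RIP replicate 1 above HuD RIP replicate 2.

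Cullin-RING ligases use adaptors to hold their substrates, and 3 of the circles came from such adaptors. Fbxl5, the iron-sensing F-box protein, was the one above all 6 control arrays (mmu_circRNA_38546, chr5:43750861-43773659, minus strand). It differed from WT RIP, where 2 of 3 arrays detected it, by 3.52 ± 0.67 (SE) and was at least 6.15-fold above its IgG RIP level in HuD RIP. Klhl2, an actin-binding adaptor, was detected on every IgG RIP array and 2 of 3 WT RIP arrays, and its differences were 2.48 ± 0.87 (SE) from WT RIP and 1.96 ± 0.87 (SE) from IgG RIP, with WT RIP replicate 1 above HuD RIP replicate 2.

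Fbxo21, an F-box protein, was with Rnf169 the other circle detected on all 9 arrays. Its circle mmu_circRNA_39241 (chr5:118000337-118002172, plus strand) gave 1.28, 0.75 and 1.86 in HuD RIP, 0.02, 0.02 and 0.05 in WT RIP and 0.00, 0.50 and 0.91 in IgG RIP. All HuD RIP arrays exceeded WT RIP, whose 3 arrays nearly coincided, and IgG RIP replicate 3 exceeded HuD RIP replicate 2. The differences were 1.27 ± 0.41 (SE) from WT RIP and 0.82 ± 0.41 (SE) from IgG RIP.

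The proteasome gave the circles of Psmd7, a subunit of the regulatory lid, and of Psme3, a nuclear proteasome activator. The Psmd7 circle mmu_circRNA_43436 (chr8:107582381-107586716, minus strand) was 0.85 on WT RIP replicate 1, above all HuD RIP arrays (0.27, -0.55 and 0.22), so the groups overlapped. That was the only WT RIP array to detect it, and its difference from WT RIP was 0.95 ± 0.71 (SE). Its bound against IgG RIP was at least 1.02-fold. The Psme3 circle mmu_circRNA_24191 (chr11:101319455-101320813, plus strand) was detected on no control array and was at least 1.48-fold above its WT RIP level in HuD RIP. Against IgG RIP its bound did not exceed 1, so no fold is given.

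The comparison of WT RIP with IgG RIP sets the 2 controls against each other. The rule did not name it, but both groups entered the contrasts that chose the circRNAs, so it is not independent of the choice. The median difference over the 25 was -0.03 on the log2 scale, against -0.05 over all tested probes, and 12 of the 25 were higher in WT RIP. None of the 25 passed an adjusted p under 0.05 by limma, and 0.0146% of tested probes did. At an unadjusted p under 0.05, 2 of the 25 and 5.72% of tested probes differed. The pair were Trim37 mmu_circRNA_24012, higher in WT RIP by 1.39 ± 0.44 (SE, limma adjusted p = 0.633), and the Rnf214 circle, higher by 1.05 ± 0.44 (SE, limma adjusted p = 0.866).

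A list of other pathway genes outside the name stems was searched among the listed circRNAs, and it matched 15 circles of 13 genes. The list was made with earlier results known and is not complete. It lacks, for example, the ligase genes Ttc3 and Ankib1, whose listed circles differed from WT RIP by 0.25 and 0.85, and these examples were chosen after their values were seen. Ubp1, with 2 of them, is a transcription factor despite its symbol, which leaves 13 circles of 12 genes. All 13 were called against both controls, as were 69.4% of the listed circRNAs outside the 25 and 9.88% of tested probes, and they share the reason for being listed with the 25. Within the list, their differences of measured means from WT RIP had a median of 2.51. They ran from 1.36 (Dcaf8, a substrate receptor of cullin ligases) to 4.25 (Rc3h2, a RING protein that binds mRNA). No WT RIP array detected the circles of Rc3h2, Mib1, Ubxn7 and Arih1 mmu_circRNA_44310, so their differences are set against undetected signal. For these, in that order, HuD RIP was at least 4.41-, 2.07-, 3.90- and 2.51-fold higher than WT RIP. Sh3rf1, a RING scaffold of JNK signalling, differed by 3.17, Mib1, the ligase of Notch ligands, by 3.03 and Ubxn7, a cofactor of the segregase p97, by 2.97. The SUMO pathway appeared here with Pias1 (1.82), Pias2 (2.88) and Senp6 (2.51), and the remaining genes were Arih1 with 2 circles (1.85 and 2.75), Skp1a (1.92), March1 (2.04) and Cdc27 (1.72). Of the 13, 12 were undetected on every IgG RIP array, as were 66% of the listed circRNAs outside the 25 and 88% of the 25. Nothing is read from that count, because the list was made with earlier results known.

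Features that the rule did not use were set against the other 712 listed circRNAs. Of the 25, 18 were exonic (72%), 3 intronic (12%) and 4 sense overlapping (16%), against 87.9%, 2.39% and 8.99% of the others. The intronic circles were those of Rnf214 and the neighbouring pair of Ube2e2, so 2 of the 3 share a host gene. The provider names transcript ENSMUST00000176555 for that pair and NM_144839 for the other Ube2e2 circles. A class may therefore depend on the transcript used, which was not tested. The median span was 8524 bases (370 to 64424) against 10507.5. All 25 lay inside their host gene as RefSeq bounds it on GRCm38.p6. More than 1 circle was listed for 10.0% of the 20 host genes and for 27.1% of the 528 host genes of the other circRNAs.

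The provider's tables also predict 5 miRNAs for each circle, and the 25 circles name 115 different miRNAs. None of the 115 is named for more than 2 of the circles, and 10 are named for 2. As examples, 3 of these 10 are shown, with the seed (bases 2 to 8) in capitals and the mature sequence from RefSeq on GRCm38.p6.
mmu-miR-337-3p: uCAGCUCCuauaugaugccuuu
mmu-miR-136-5p: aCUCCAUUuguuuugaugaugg
mmu-miR-7092-3p: uGUUCUUUguuuuguuugccuuag

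The first is named for Trim37 mmu_circRNA_24012 and mmu_circRNA_24020, which overlap in the gene, and for 6 of the other 712 listed circRNAs (0.843%). miR-136-5p is named for the Rnf214 circle and Trim37 mmu_circRNA_24012 and for 1.40% of the others. miR-7092-3p is named for Rnf11 and Ube2e2 mmu_circRNA_27145 and for 7.30% of the others. Their seeds differ from each other. These are predictions, and no binding was measured.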

How the data were processed

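The authors' service provider (Arraystar) digested linear RNA with RNase R, labelled the rest with Cy3 and scanned 9 mouse circRNA arrays. Feature Extraction 11.0.1.1 gave the intensity values in the deposited scanner files, as their headers state. The processed signal is background-subtracted intensity, not normalized between arrays. The authors' deposited tables of circRNAs higher in HuD RIP hold log2 values normalized by a method not given in the sources used here. They also hold p-values, false discovery rates and fold changes, which were not used, and 20 further value columns that were not used. The submitters' processing notes name limma. Names, classes, positions, sequences and miRNA predictions come from those tables, which name no genome build for the positions. Whether starts count from 0 or 1 is not stated. The sequence of 1 circle is not reported here.

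Samples were grouped and numbered by their labels. The 25 circRNAs and the gene lists were chosen with earlier results of these data known. Circles described one by one have several listed circles in their gene, are detected on all 9 arrays, or have the 3 largest or 3 smallest differences between the HuD RIP mean and the higher control mean. The Ube3a values were added after they were seen.

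Outlier spots (269 values) were left out and replicate spots averaged. No probe was saturated. The 75th percentile over 14330 non-control probes was subtracted from the log2 processed signal. Probes well above background on at least 3 arrays (6871) were fitted with limma 3.58.1 in R 4.3.3 (1 mean per group, 6 residual and 6.42 prior degrees of freedom, Benjamini-Hochberg adjustment), a fit first tested on simulated data. Folds against a group with no detected array are bounds. The HuD RIP mean is set against the mean, per array, of the higher of the probe's signal and the lowest signal well above background. The number of arrays, 3 in each group, limits the precision.

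Slide 2 held IgG RIP replicate 3 alone. On slide 1, row 1 held HuD RIP replicate 1 with all WT RIP arrays, and row 2 the others. Alternatives were other scalings, normexp (offset 50), other filters, the methods' t-test, blocks for replicate number, slide and row, array brightness as a covariate, 2 groups only, and leaving out each array.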

Additional observations from a re-analysis of the deposited data

How the results depend on the processing

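The main settings called 19 of the 25 circRNAs against WT RIP, 21 against IgG RIP and 18 against both (76%, 84% and 72%). They called 12.4%, 14.2% and 9.88% of tested probes, and 74.7%, 82.7% and 69.4% of the other 712 listed circRNAs. Nothing is read from these counts or those below, because the same contrasts chose the circRNAs. The median differences were 2.68, 2.49 and, for WT RIP against IgG RIP, -0.03. The median differences of HuD RIP from each control stayed above 0 under every alternative run. Nothing is read from that sign, because the circRNAs are listed for a higher HuD RIP signal on these same arrays. Normexp background correction gave 10, 9 and 9 calls and medians of 0.64 and 0.66. Each array's 75th percentile as a covariate gave 7, 2 and 2 calls and a median of 1.66 against IgG RIP. Only circRNAs well above background on all 9 arrays left 2 to be tested, of which 1, 0 and 0 were called, with medians of 0.85 and 0.87. The methods' t-test gave 0, 10 and 0 calls after Benjamini-Hochberg adjustment, and 3 for WT RIP against IgG RIP at its unadjusted threshold and over 1.5-fold, where the main count was 0. Medians were 3.39 and 3.31 with the percentile taken over probes detected on all arrays, 4.17, 4.71 and 0.69 without scaling, and 1.26 and 1.19 on the authors' normalized values (17 and 23 circRNAs). Except where the construction leaves fewer circRNAs tested, the cause was not tested.

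Leaving out 1 array at a time gave 13 to 23 calls against WT RIP, 15 to 23 against IgG RIP, 12 to 22 against both and 0 to 0 for WT RIP against IgG RIP. The fewest came without HuD RIP replicate 3 (13, 15 and 12) and the most without HuD RIP replicate 2. The medians ran from 2.51 to 2.92, from 2.22 to 2.68 and from -0.36 to 0.28. Whether the replicate numbers pair the samples is not settled, and the main fit did not pair them. Deviations from the group means correlated between same-numbered arrays at -0.0992 to 0.648. For HuD RIP with WT RIP they correlated at 0.648, 0.557 and -0.0992 for replicates 1, 2 and 3. Between arrays of these groups with different numbers the correlations ran from -0.658 to 0.18. With the replicate block the calls were 21, 23, 20 and 0. In IgG RIP 22 of the 25 were undetected on every array, so a fold against it is at best a bound for those 22.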
